A study of Mus musculus with 6 samples.

Results

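Semaphorins, plexins and neuropilins were examined in bulk RNA sequencing libraries of cells taken from subcutaneous CT26 tumours. The set comprised 4 of the class 4 semaphorins, Sema4a, Sema4b, Sema4c and Sema4d, the 4 plexins Plxna1, Plxnb2, Plxnc1 and Plxnd1, and the neuropilins Nrp1 and Nrp2. These 10 genes were matched by symbol among the 17191 genes of the deposited tables, and all 10 passed the filter on low counts. They were chosen by family name with the edgeR results of the treatment comparison known, Sema4b being 1 of the 14 genes called in it, so the treatment values of the members below are descriptions and not tests of the family.

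CT26 is a murine colorectal carcinoma line, grown here in the flanks of female mice of the BALB/c strain, 6 to 8 weeks of age. Once tumours measured 100 to 200 mm3, mice received TP-18, a compound given only by its code name, at 50 mg/kg once a day by mouth, or vehicle, for 3 weeks, and 3 libraries were sequenced per group. No allele or other agent is named for either group. The labels disagree on the cells: the series text gives CD11b+F4/80+CD206+ macrophages from a cell sorter, the treatment text gives bead-selected CD11b+ cells, and the characteristics give only the tumour line. No label ties a library to a mouse of its own, so SDs and p-values cover the spread between libraries, which may be partly technical.

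Total counts were 17135001 to 17597645 in the TP-18 libraries and 16371128 to 17004480 in the vehicle libraries. The selection markers Itgam, Mrc1 and Adgre1, for CD11b, CD206 and F4/80, were abundant, at means of 889.8, 776 and 191 CPM (counts scaled to library size) in TP-18 and 1012, 977 and 192 CPM in vehicle libraries. Other cells were present too. The 10 fibroblast and pericyte markers summed to 1499 to 1868 CPM in TP-18 libraries and 746 to 1204 CPM in vehicle libraries, without overlap, with 10 of 10 tested members having positive log2 fold changes. The 12 endothelial markers, also all positive, summed to 113 to 238 CPM in TP-18 libraries and 32.4 to 237 CPM in vehicle libraries. Mast cell markers summed to 10.6 to 33.1 CPM in TP-18 and 3.24 to 5.65 CPM in vehicle libraries, and B and plasma cell markers to 2.77 to 8.79 CPM in TP-18 and 1.38 to 3.93 CPM in vehicle libraries. Neuron and Schwann cell markers summed to 13.02 to 16.1 CPM in TP-18 and 8.67 to 12.1 CPM in vehicle libraries. Dendritic cell markers were lower without overlap, at 4.94 to 6.39 CPM in TP-18 and 8.43 to 14.3 CPM in vehicle libraries, with 3 of 3 tested members negative. Of their defining genes, Xcr1, Siglech and Cd209a had 0 to 3 reads in each library. Clec9a, not tested, had 9, 0 and 6 reads in TP-18 and 2, 2 and 4 reads in vehicle libraries. The sum came mostly from Zbtb46 and Ccr7, though in TP-18 2 Flt3, at 1.52 CPM, exceeded Ccr7, at 0.597 CPM. Lymphatic endothelial markers summed to 106 to 195 CPM in TP-18 and 128 to 507 CPM in vehicle libraries. That sum came almost wholly from Pdpn and Lyve1, as Prox1 had 0 to 9 and Ccl21a 0 to 6 reads in each library, so it does not show lymphatic endothelium. Macrophage markers summed to 4776 to 7094 CPM in TP-18 and 5260 to 9058 CPM in vehicle libraries, with 8 of 10 negative. Of the 12 lists, 3 had all TP-18 sums above and 1 all TP-18 sums below those of vehicle. Epcam and Krt19 were at or near 0, Epcam with 1 to 7 counts in TP-18 and 2 to 17 counts in vehicle libraries, while Krt20 gave most of the epithelial sum of 247 to 512 CPM in TP-18 and 344 to 532 CPM in vehicle libraries. Vehicle 1 correlated more closely across genes with TP-18 1 and TP-18 3 (r = 0.980 and 0.982) than with vehicle 2 and vehicle 3 (0.964 and 0.970). In bulk RNA, fewer cells of a type and less RNA per cell cannot be told apart.

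Semaphorins are secreted or membrane-bound guidance proteins that share an extracellular sema domain, first studied as cues that steer growing axons. Plexins are their main receptors, single-pass proteins whose cytoplasmic part acts on small GTPases and so on adhesion and the cytoskeleton. Neuropilins have short cytoplasmic tails and work as co-receptors, with plexins for class 3 semaphorins and with VEGF receptors for VEGF. In tumours the system is known for acting on vessels, on invasion and on the movement and activation of myeloid and lymphoid cells.

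In the deposited annotation 8 of the 10 genes carry the KEGG term axon guidance and 9 the GO term for semaphorin-plexin signalling, while 4 carry angiogenesis and 2, the neuropilins, VEGF-activated receptor activity. On GRCm38, Sema4b (Entrez 20352) spans 80186841 to 80226527 on chromosome 7, plus strand, and none of its exons overlaps an exon of another GENCODE gene. Sema4a (20351) lies on chromosome 3, Sema4c (20353) and Nrp2 (18187) on chromosome 1, Sema4d (20354) on chromosome 13, Plxna1 (18844) and Plxnd1 (67784) on chromosome 6, Plxnb2 (140570) on chromosome 15, Plxnc1 (54712) on chromosome 10 and Nrp1 (18186) on chromosome 8. All are protein-coding. Exons of Sema4c share 334 bases with D430040D24Rik, and exons of Plxna1 share 970 bases with Gm26811, both on the opposite strand. Whether strand was used in counting is not given in the sources used here, so reads in those stretches cannot be told apart.

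RefSeq start windows on GRCm38.p6, each from 250 bases before to 50 bases after an annotated start, matched 9 of the 10 genes. Both windows of Sema4b, the member called lower, and the upstream window of Sema4c, the class 4 member with the most positive estimate, are shown because these were the class 4 genes whose estimates lay furthest apart. Sequences run 5′ to 3′ on the gene's strand, and capitals mark matches on either strand to GGGCGG (GC box), CACGTG (E-box), GGGNNTTCC (a kappaB-like motif) or TGANTCA (AP-1).
Sema4b upstream start, chr7:80186620-80186919, plus strand: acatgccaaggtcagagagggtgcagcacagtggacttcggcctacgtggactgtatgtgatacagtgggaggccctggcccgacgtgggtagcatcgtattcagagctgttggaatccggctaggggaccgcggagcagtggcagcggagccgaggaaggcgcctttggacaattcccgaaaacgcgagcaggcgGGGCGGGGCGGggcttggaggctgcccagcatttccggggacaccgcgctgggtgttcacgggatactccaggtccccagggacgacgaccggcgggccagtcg
Sema4b downstream start, chr7:80198338-80198637, plus strand: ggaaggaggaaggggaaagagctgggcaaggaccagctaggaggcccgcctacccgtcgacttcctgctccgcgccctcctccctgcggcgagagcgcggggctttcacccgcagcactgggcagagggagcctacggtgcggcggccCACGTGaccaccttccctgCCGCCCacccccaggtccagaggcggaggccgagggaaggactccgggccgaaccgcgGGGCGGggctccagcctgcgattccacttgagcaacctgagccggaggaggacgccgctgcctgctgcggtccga
Sema4c upstream start, chr1:36558332-36558631, minus strand: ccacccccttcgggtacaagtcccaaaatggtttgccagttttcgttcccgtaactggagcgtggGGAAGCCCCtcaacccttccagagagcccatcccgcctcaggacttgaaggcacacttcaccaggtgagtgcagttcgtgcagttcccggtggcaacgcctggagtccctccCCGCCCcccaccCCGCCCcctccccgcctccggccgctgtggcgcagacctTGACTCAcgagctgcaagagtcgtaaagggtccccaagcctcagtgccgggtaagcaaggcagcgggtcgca
Each Sema4b window held 2 GC box matches, which overlap by their end bases in the upstream window, and the downstream window also held 1 E-box match. Neither held the kappaB-like or the AP-1 letters. The Sema4c window shown held 1 of each, whereas the downstream Sema4c window, not shown, held neither. No kappaB-like or AP-1 match in the shown windows overlapped a GC box. Over all 32851 mouse start windows, 35.7% held the GC box, 7.15% the E-box, 5.82% the kappaB-like and 7.81% the AP-1 letters. Of the 17 windows of the 9 matched members, 14 held the GC box, 1 the E-box, 2 (of Sema4c and Plxnb2) the kappaB-like and 2 (of Sema4c and Sema4d) the AP-1 letters. These letter matches are descriptions of the windows and say nothing of binding.

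Among the ligands, Sema4b, a transmembrane semaphorin, was much less abundant after TP-18. It had 664, 573 and 819 reads in TP-18 libraries 1, 2 and 3, against 1787, 1690 and 1570 reads in vehicle libraries 1, 2 and 3. Scaled by TMM, this was 35.8, 31.1 and 44.7 CPM in TP-18 and 109.8, 106 and 104 CPM in vehicle libraries. Every TP-18 library lay below every vehicle library, and the 3 vehicle libraries were nearly alike. The means were 37.2 ± 6.92 CPM in TP-18 and 107 ± 2.99 CPM in vehicle libraries (SD, n = 3 each). The log2 fold change was -1.52 ± 0.16 (SE). This is the value that put Sema4b among the called genes (edgeR adjusted p = 0.0416 over 12721 genes). In that fit 1 of the 10 members was called, lower, and 0 were called higher, while among all tested genes 0.0865% were called lower, 0.0236% higher and 0.11% in either direction. DESeq2 called the same 1 member, lower, against 4.54% of the genes it tested in either direction, 3.04% lower and 1.5% higher. Neither limma fit called a member (0), against 0.0157% of all genes. The groups did not overlap for 1 of 10 members, against 23.3% of all tested genes. The estimate for Sema4b ran from -1.67 to -1.27 over 13 alternative settings, but the call ended when any 1 library was left out (edgeR adjusted p = 0.0728 to 0.221), and with library totals as scaling (0.0651). Sums of dendritic cell markers were lower in all TP-18 libraries, as Sema4b was, and those of fibroblast, mast cell and neuron markers higher, as given above. Cd14, a macrophage marker, was also lower in all of them, at 683, 640 and 822 CPM in TP-18 and 1575, 1725 and 1211 CPM in vehicle libraries (edgeR adjusted p = 0.0972). Cd14 and Cd68 were the only 2 of 10 macrophage markers lower without overlap, against 11.7% of all tested genes. Csf1r and Mertk had positive log2 fold changes of 0.07 and 0.12, and the macrophage sums overlapped between groups. The part of these cells in the Sema4b value was not tested.

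Sema4a, a transmembrane semaphorin known from dendritic cell and T cell responses, had 42.1, 28.3 and 46.2 CPM in TP-18 and 44.2, 35.1 and 43.9 CPM in vehicle libraries. The groups overlapped and the log2 fold change was -0.08 ± 0.21 (SE), or 0.10 with library totals as scaling. Sema4c, a ligand of plexin B2, had 27.7, 35.7 and 19.1 CPM in TP-18 and 21.8, 13.5 and 14.0 CPM in vehicle libraries. Here TP-18 3 lay below vehicle 1, so the groups overlapped, with a log2 fold change of 0.74 ± 0.28. Sema4d (CD100), a ligand of plexin B1, plexin B2 and CD72, had 22.6, 14.5 and 54.5 CPM in TP-18 and 44.4, 26.3 and 31.8 CPM in vehicle libraries. TP-18 3 was the highest and TP-18 2 the lowest of all 6 libraries, and the log2 fold change of -0.16 ± 0.46 carried a wide error. It ran from -0.88 to 0.17 when 1 library was left out. T and NK cells are known for Sema4d, and the 8 of their 9 listed markers in the table summed to 11.5, 3.47 and 16.3 CPM in TP-18 and 18.2, 3.52 and 11.5 CPM in vehicle libraries. Within each group the library with the lowest marker sum also had the lowest Sema4d and the library with the highest sum the highest. This order was not particular to T and NK markers. It also held for the macrophage markers Adgre1 and Csf1r, though not for the macrophage sum, which was highest in vehicle 3 among vehicle libraries. The part of any of these cells in Sema4d was not tested. The spread of Sema4d within groups, 0.71 as an SD of log2(CPM + 1), was at the 97.5th percentile of 4506 genes within 2-fold of its level, while that of Sema4b, 0.18, was at the 45.7th of 4157 genes.

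Set per transcript length, Sema4b made up 34.6%, 36.2% and 34.2% of the summed FPKM of these 4 semaphorins (fragments scaled to gene length and library size) in TP-18 libraries 1, 2 and 3, against 58.0%, 65.7% and 60.8% in vehicle libraries 1, 2 and 3. Sema4b therefore had the highest FPKM of the 4 genes in every vehicle library. In TP-18 1 its share was below that of Sema4a, at 36.7%, and in TP-18 2 and TP-18 3 above it. The Sema4c share was 15.2%, 23.7% and 8.29% in TP-18 libraries and 6.55%, 4.76% and 4.65% in vehicle libraries. These orders depend on the gene lengths behind the FPKM. With merged GENCODE exon lengths, an alternative chosen after seeing the data, the Sema4b share was 27.5%, 27.0% and 28.6% in TP-18 and 51.0%, 59.4% and 54.6% in vehicle libraries, so that it was lower in every TP-18 library with either length. With those lengths Sema4a exceeded Sema4b in TP-18 1 and TP-18 3, and Sema4c, at 26.1%, 38.1% and 14.97% in TP-18 and 12.4%, 9.29% and 9.02% in vehicle libraries, was the highest of the 4 in TP-18 2. Shares within a library do not depend on the scaling between libraries, and as shares of 1 sum they are not independent of each other.

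**Figure D1:**
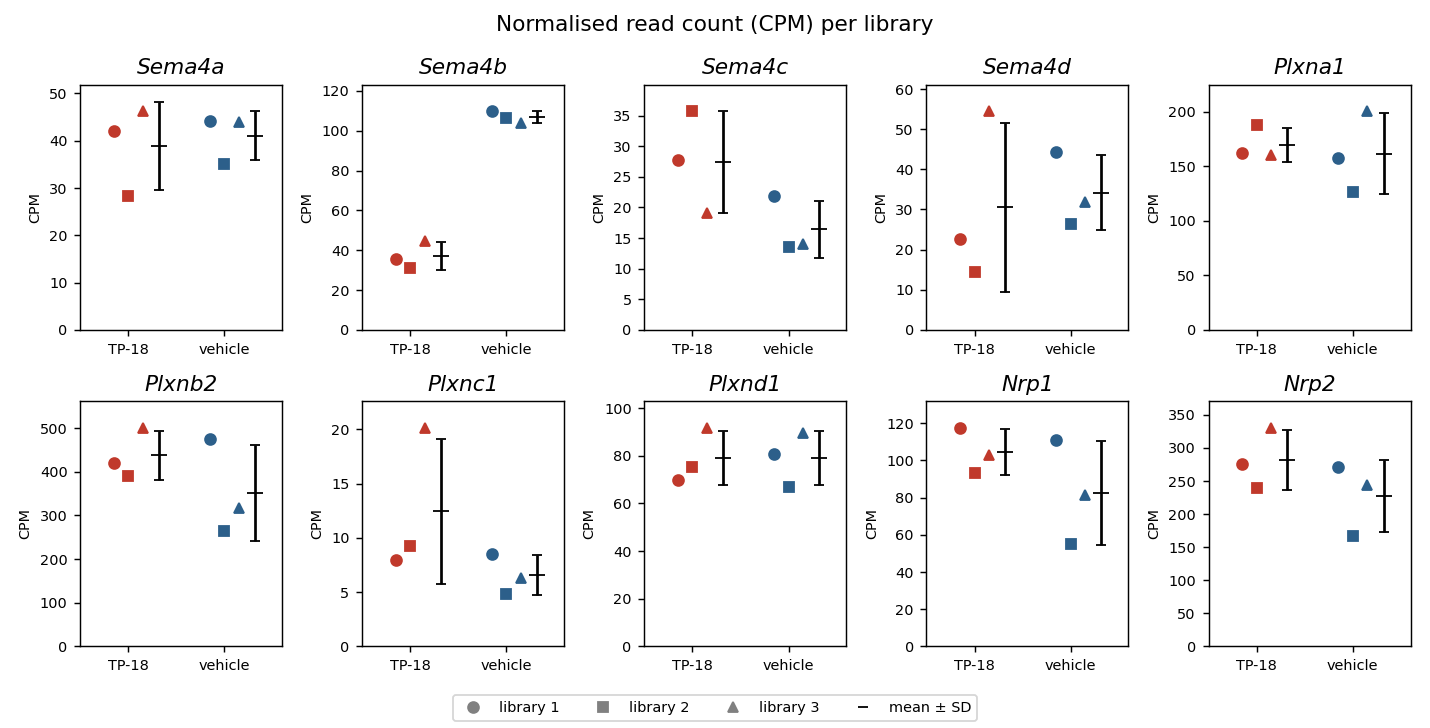
Normalised read count (CPM, linear axes from 0) of the 10 genes in each library, with TP-18 in red and vehicle in blue, a marker shape for each library number, and black bars for mean ± SD (n = 3 each). In Sema4b all TP-18 libraries (31.1 to 44.7 CPM) lie below all vehicle libraries (104 to 109.8 CPM), and in the other 9 genes the groups overlap.

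**Figure D2:**
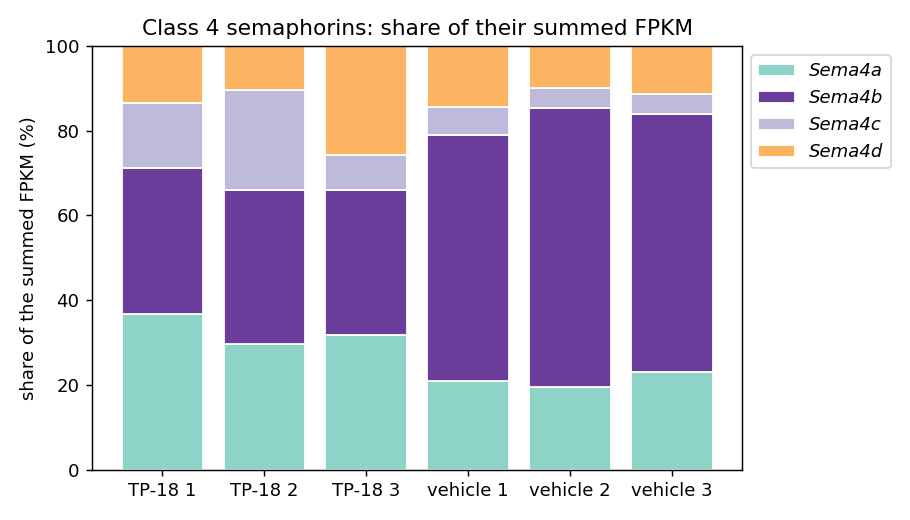
Share (%) of the summed FPKM of Sema4a, Sema4b, Sema4c and Sema4d taken by each gene in each library, TP-18 libraries on the left and vehicle libraries on the right. The Sema4b section is 34.2% to 36.2% in TP-18 and 58.0% to 65.7% in vehicle libraries.

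Among the receptors, Plxnb2, which binds class 4 semaphorins and also angiogenin, was the most abundant, with 421, 391 and 501 CPM in TP-18 and 475, 264 and 317 CPM in vehicle libraries. Vehicle 1 lay among the TP-18 libraries and the other vehicle libraries below them, and the log2 fold change was 0.31 ± 0.23 (SE), or 0.57 without vehicle 1 and 0.13 without vehicle 2. Plxna1, which works with neuropilins for class 3 semaphorins and, in myeloid cells of the mouse, with the Trem2 and DAP12 receptor complex, had 162, 188 and 159.8 CPM in TP-18 and 158, 127 and 200.4 CPM in vehicle libraries. The vehicle values enclosed those of TP-18, with a log2 fold change of 0.07 ± 0.19. Plxnd1, the receptor of Sema3e known from vessel patterning, averaged 79.0 ± 11.4 CPM in TP-18 and 79.1 ± 11.3 CPM in vehicle libraries (SD, n = 3 each). Its log2 fold change was -0.00019 ± 0.16 (SE), or 0.18 with library totals as scaling. Plxnc1, the receptor of Sema7a, was the least abundant, at 7.92, 9.23 and 20.1 CPM in TP-18 and 8.54, 4.85 and 6.35 CPM in vehicle libraries. TP-18 3 stood above the other 5 libraries, and the log2 fold change of 0.92 ± 0.40 became 0.38 without it. In FPKM, which is scaled by library totals, its lowest TP-18 value of 1.04 just exceeded its highest vehicle value of 1.03.

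Nrp1, co-receptor of Sema3a and VEGF-A, had 118, 93.2 and 103 CPM in TP-18 and 111, 55.0 and 81.3 CPM in vehicle libraries. Nrp2, co-receptor of Sema3f and VEGF-C, had 276, 240.2 and 331 CPM in TP-18 and 272, 167 and 244 CPM in vehicle libraries. In both genes vehicle 1 lay among the TP-18 libraries and vehicle 2 was the lowest of the 6, and their log2 fold changes were 0.34 ± 0.25 and 0.31 ± 0.21 (SE). Over the 6 fits that each left out 1 library, the estimate for Nrp1 ran from 0.11 to 0.59 and Nrp2 from 0.12 to 0.44. Vehicle 2 was the lowest vehicle library for 9 of the 10 genes, Sema4b being the exception, and the lowest of all 6 for 7. TP-18 3 was the highest TP-18 library for 7 genes and the highest of all 6 for 6.

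Per length, the order of the mean level over all 6 libraries was Plxnb2 (51.1 FPKM), Nrp2 (31.7), Plxna1 (18.4), Sema4b (17.4), Plxnd1 (11.5), Nrp1 (9.72), Sema4a (8.98), Sema4d (4.97), Sema4c (3.17) and Plxnc1 (1.21). Plxnb2 was first and Plxnc1 last in every library, and Nrp2 exceeded Plxna1 in all 6. Ranges over libraries overlapped between every pair of neighbours in this order. The place of Sema4b in this order differed between the groups: by group mean it was the sixth at 9.87 FPKM in TP-18, below Plxnd1 (12.2) and Nrp1 (11.4), and the third at 25.0 FPKM in vehicle libraries. Plxna1 exceeded Sema4b in 3 of 6 libraries, those of the TP-18 group, and Sema4d exceeded Sema4c in 4 of 6. The deposited FPKM values rest on 1 length per gene, which differed from the merged exons of the GENCODE annotation for some members. For Sema4c the length behind the FPKM was 7045 bases against 4593 bases of merged exons, and with the latter its mean level became 4.87 FPKM, above Sema4d at 4.21. For Nrp2 the lengths were 8107 and 11842 bases, and its level became 21.7 FPKM, still second.

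**Figure D3:**
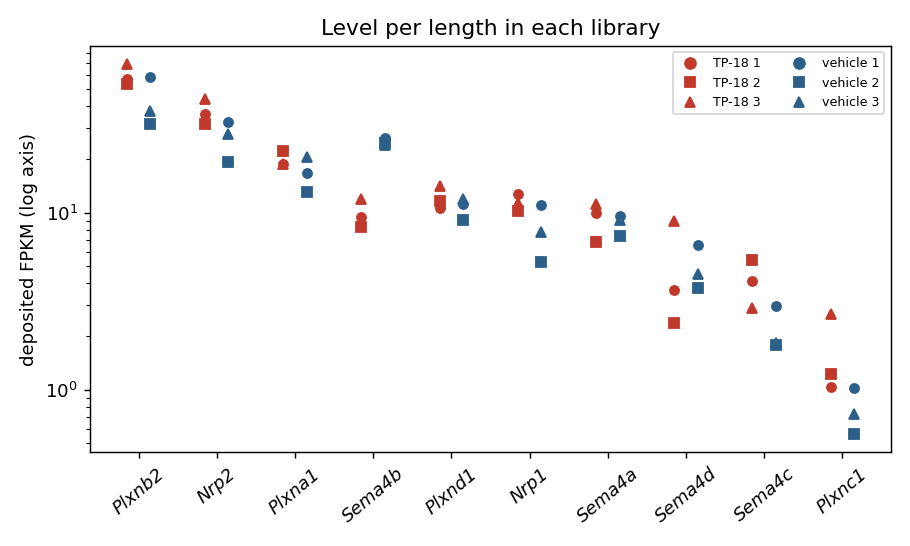
Deposited FPKM (log axis) of the 10 genes in each library, ordered by the mean over all 6 libraries, with TP-18 points in red to the left of vehicle points in blue. Plxnb2 is highest (31.7 to 68.6 FPKM) and Plxnc1 lowest (0.565 to 2.69 FPKM), and Sema4b has all TP-18 points (8.26 to 11.9 FPKM) below all vehicle points (23.9 to 26.4 FPKM).

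Other members of the family were examined as a list by name. Of 21 other semaphorins and plexins, 17 were tested and 0 were called by edgeR, with 4 at an unadjusted p under 0.05, or 23.5% against 16.3% of all tested genes. DESeq2 called 2, Sema3g and Sema6b, both higher, where it called 1.5% of all genes higher, and limma on FPKM values 0. Of the 17, 14 log2 fold changes (82.4%) were positive and the median was 0.31, against 52.6% and 0.02 over all tested genes. With library totals as scaling, which moved the median of all genes to 0.20 and the positive share to 71.8%, these became 15 and 0.48. All TP-18 libraries lay above all vehicle libraries for 5 of the 17, Sema3g, Sema6b, Sema6d, Plxna3 and Plxnb1, and below for 0, against 11.6% above and 11.7% below among all tested genes.

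Sema3a, the secreted ligand that signals through Nrp1 and class A plexins, had the highest mean FPKM of the semaphorins over all 6 libraries, with 32.2, 39.2 and 25.2 FPKM in TP-18 and 26.7, 27.2 and 22.7 FPKM in vehicle libraries. In vehicle 3 it lay below Sema4b, at 23.9 FPKM. The groups overlapped, and its log2 fold change in CPM was 0.16 ± 0.18 (SE). Sema5a, a transmembrane semaphorin with thrombospondin repeats, varied more, with 17.5, 7.74 and 17.9 FPKM in TP-18 and 13.3, 4.21 and 4.43 FPKM in vehicle libraries. High values were found in TP-18 1, TP-18 3 and vehicle 1, so this gene split the libraries across the groups. Sema6b, a transmembrane ligand of class A plexins, had 8.05, 12.2 and 6.73 FPKM in TP-18 and 3.88, 3.67 and 3.17 FPKM in vehicle libraries. All its TP-18 values were higher, with a log2 fold change of 1.15 ± 0.23 in CPM that did not pass (edgeR adjusted p = 0.136). Sema3g, a secreted semaphorin known from endothelial cells and named here after its values were seen, had 189, 215 and 80 reads in TP-18 and 10, 38 and 28 reads in vehicle libraries (edgeR adjusted p = 0.150). Within each group the libraries had the same order for Sema3g as for the summed endothelial markers. Between groups, vehicle 2 and TP-18 2 were alike in that sum, at 237 and 238 CPM, with 2.39 and 11.7 CPM of Sema3g. The part of endothelial cells in Sema3g was not tested.

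**Figure D4:**
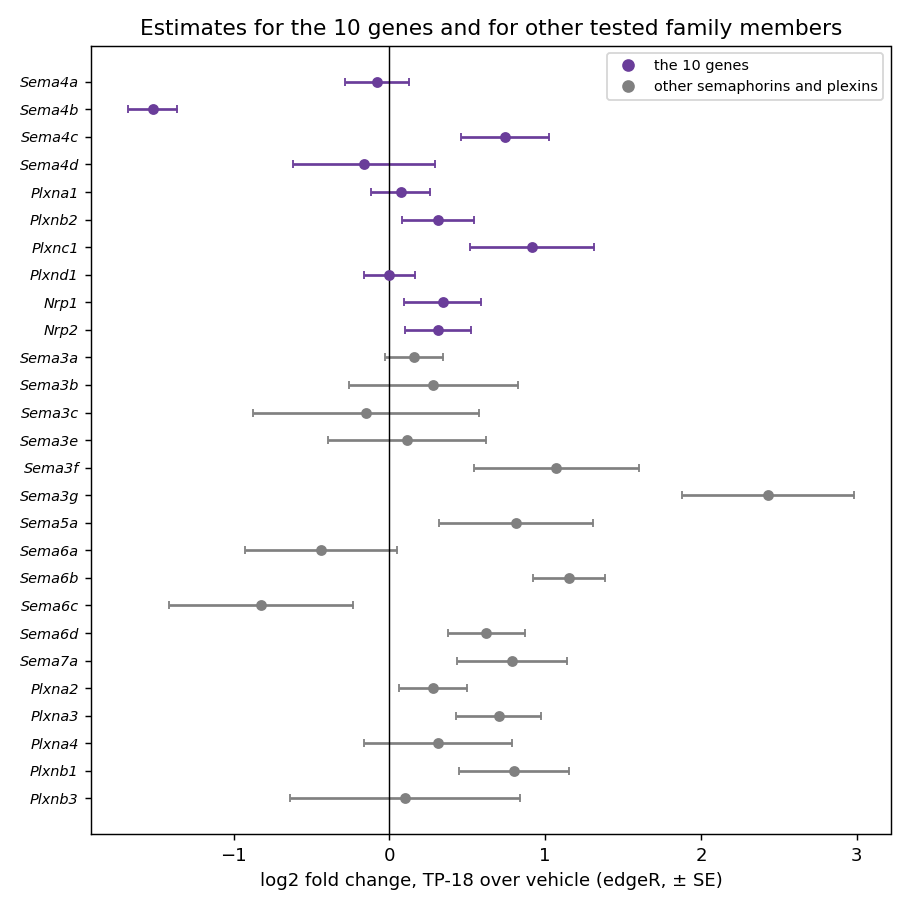
Log2 fold change of TP-18 over vehicle (edgeR, ± SE) for the 10 genes in purple and the other 17 tested semaphorins and plexins in grey. Sema4b is at -1.52, and 14 of the 17 grey points are to the right of 0, led by Sema3g at 2.43.

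The VEGF branch shares the neuropilins. Of 8 VEGF ligands and receptors in the files, 7 were tested, 0 were called by edgeR and 1 had an unadjusted p under 0.05 (14.3%, against 16.3% of all tested genes). DESeq2 called 1, Kdr, higher, where it called 1.5% of all genes higher, while limma on FPKM values called 0. Vegfa, the main ligand of vessel growth, was the most abundant, at 55.2, 91.1 and 72.6 FPKM in TP-18 and 69.6, 67.0 and 61.1 FPKM in vehicle libraries, with overlapping groups. Vegfb averaged 21.6 ± 3.36 CPM in TP-18 and 23.5 ± 3.87 CPM in vehicle libraries, and Vegfd 16.7 ± 5.89 CPM in TP-18 and 12.2 ± 4.77 CPM in vehicle libraries (SD, n = 3 each). Kdr, VEGF receptor 2, named after its values were seen, had 27.9, 21.4 and 20.5 CPM in TP-18 and 9.34, 9.82 and 11.3 CPM in vehicle libraries, higher in all TP-18 libraries but short of the threshold (edgeR adjusted p = 0.0863).

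Endothelial cells carry neuropilins, Plxnd1 and VEGF receptors, so these genes were set beside the summed endothelial markers. Those markers stood at 222, 238 and 113 CPM in TP-18 and 32.4, 237 and 75.6 CPM in vehicle libraries. Flt1, VEGF receptor 1, had 53.4, 92.1 and 31.2 CPM in TP-18 and 10.1, 51.3 and 22.4 CPM in vehicle libraries, lowest where the markers were lowest. Vehicle 2, with 237 CPM of endothelial markers, had the lowest Nrp1, Nrp2 and Plxnd1 of all 6 libraries, while vehicle 1, with the least endothelial signal, had 111 CPM of Nrp1 and 272 CPM of Nrp2. Kdr was at 9.34 CPM in vehicle 1 and 9.82 CPM in vehicle 2. The part of endothelial cells in any of these genes was not tested.

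**Figure D5:**
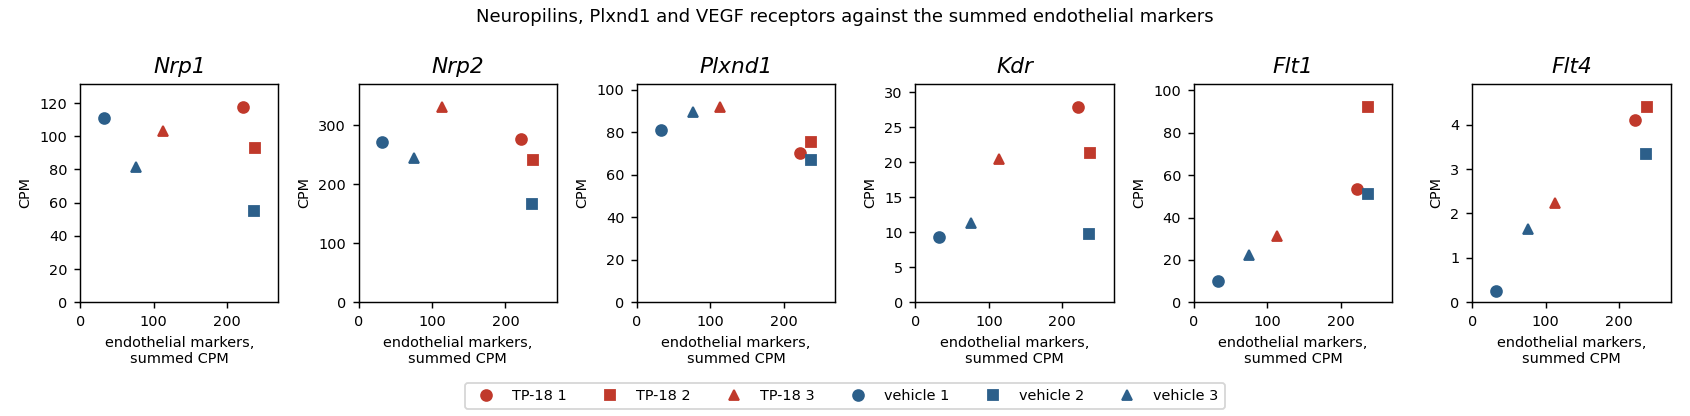
CPM of Nrp1, Nrp2, Plxnd1, Kdr, Flt1 and Flt4 (linear axes from 0) against the summed CPM of 12 endothelial markers, 1 point per library, TP-18 in red and vehicle in blue. Flt1 and Flt4 are lowest in vehicle 1, which has 32.4 CPM of markers, whereas Nrp1, Nrp2 and Plxnd1 are lowest in vehicle 2, which has 237 CPM.

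Of 10 other receptors and partners in the table all were tested, and 0 were called by edgeR, 0 by DESeq2 or limma, with 0 at an unadjusted p under 0.05. Tyrobp, which encodes DAP12, had 166 ± 49.1 CPM in TP-18 and 208 ± 25.2 CPM in vehicle libraries, and Trem2, its receptor partner, 93.0 ± 23.6 CPM in TP-18 and 108 ± 28.8 CPM in vehicle libraries (SD, n = 3 each). Itgb1, the beta chain of the integrins that bind Sema7a, had 819 ± 80.8 CPM in TP-18 and 841 ± 26.4 CPM in vehicle libraries. Cd72, the lymphoid receptor of Sema4d, named after its values were seen, had 86.6, 22.9 and 138 CPM in TP-18 and 134, 5.98 and 10.8 CPM in vehicle libraries. This 23.2-fold range crossed the groups, with high values in TP-18 1, TP-18 3 and vehicle 1, the same libraries as for Sema5a. Of the 7 B and plasma cell markers, from cells known for CD72, Ms4a1 had 0 to 3 reads in each library, Cd79b had 64, 27 and 125 reads in TP-18 and 49, 2 and 14 reads in vehicle libraries, and Cd79a had 53, 17 and 25 reads in TP-18 and 15, 16 and 5 reads in vehicle libraries. Cd79b was lowest in the same 3 libraries as Cd72, and Cd79a was not, with fewer reads in vehicle 1 than in TP-18 2. This split was not particular to B cell markers. The macrophage marker Adgre1, at 209, 108 and 257 CPM in TP-18 and 295, 99.9 and 181 CPM in vehicle libraries, had it too. So did the T cell marker Cd8a, with 53, 4 and 64 reads in TP-18 and 103, 0 and 7 reads in vehicle libraries. The macrophage marker Csf1r and the macrophage sum did not. The part of any of these cells in Cd72 was not tested.

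Of 31 genes of plexin signalling, all tested, 0 were called by edgeR, 6 had an unadjusted p under 0.05 (19.4%, against 16.3% of all tested genes), and DESeq2 called 2, Rap1b and Rnd1, both lower, where it called 3.04% of all genes lower, while limma on FPKM values called 0. Their median log2 fold change was 0.02, as over all tested genes, with 16 positive (21 with library totals as scaling). Rap1b, a small GTPase on which the plexin GAP domain acts, had 491, 480.1 and 524 CPM in TP-18 and 662, 717 and 795 CPM in vehicle libraries. All TP-18 values were lower, with a log2 fold change of -0.54 ± 0.13 (SE; edgeR adjusted p = 0.165). Cfl1, the actin-severing protein cofilin, had 933 ± 97.7 CPM in TP-18 and 1102 ± 143 CPM in vehicle libraries, and Rac1 480.5 ± 70.8 CPM in TP-18 and 541 ± 84.7 CPM in vehicle libraries (SD, n = 3 each). Rnd1, a GTPase that binds plexins and was named after its values were seen, had 19.2, 18.9 and 15.9 CPM in TP-18 and 25.9, 40.2 and 26.1 CPM in vehicle libraries (edgeR adjusted p = 0.196).

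In the wider set of genes annotated to KEGG axon guidance, members left out, 129 of 164 were tested, 84 (65.1%, against 52.6% of all tested genes) had positive log2 fold changes and the median was 0.16 (110 and 0.34 with library totals as scaling). None of the 129 was called by edgeR (0, with 24, or 18.6%, at an unadjusted p under 0.05, against 16.3% of all tested genes) or by limma on FPKM values (0), and DESeq2 called 5 higher and 3 lower, against 4.54% of all genes in either direction. This set shares genes with the lists above, among them Sema3g, Sema6b and Rnd1, which DESeq2 also called there. Its counts are therefore not separate from those of the other lists. The smallest p-values belonged to Wnt5a, Unc5b and Sema6b. Wnt5a, a secreted WNT ligand, had 55, 26 and 23 reads in TP-18 and 0, 1 and 1 reads in vehicle libraries (edgeR adjusted p = 0.0796), too few in vehicle for a fold. Unc5b, a netrin receptor, had 62.1, 59.0 and 64.5 CPM in TP-18 and 40.8, 33.9 and 33.5 CPM in vehicle libraries, with a log2 fold change of 0.78 ± 0.13 (SE; edgeR adjusted p = 0.0982).

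The genes whose log2 CPM over the 6 libraries followed Sema4b most closely, among 9187 tested genes with a mean of at least 10 CPM, were Ppp1r18, Sat1, Arhgap22, Ifi202b and Ccdc71l. Their coefficients of likeness (Pearson, a description over 6 libraries that mostly mirrors the group difference) were 0.994, 0.993, 0.992, 0.990 and 0.989, and after the group means were removed 0.83, 0.81, 0.78, 0.68 and 0.68. Sat1, an enzyme that acetylates polyamines, had 337 ± 22.4 CPM in TP-18 and 604 ± 36.6 CPM in vehicle libraries (SD, n = 3 each). Arhgap22, a GTPase-activating protein, had 85.5 ± 3.42 CPM in TP-18 and 123 ± 3.80 CPM in vehicle libraries. Each of the 5 had all TP-18 libraries below all vehicle libraries, against 11.7% of all tested genes. That separation follows from their choice by likeness to Sema4b and is no separate result. The same choice favours high coefficients after the group means were removed, so these are no separate result either. Their log2 fold changes of -0.84 to -0.37 were smaller in size than that of Sema4b, with no call by edgeR among them (adjusted p = 0.0788 to 0.225).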

How the data were processed

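Counts per gene and FPKM values were deposited by the authors for 6 libraries, 3 per group. The submitters' processing notes name fastp, HISAT2, HTSeq and the GRCm38 build without versions or settings. The annotation behind the counts is not given in the sources used here. Values of FPKM as deposited by the authors equal count per library total per 1 length per gene. The deposited counts went into edgeR 4.0.16 under R 4.3.3 (quasi-likelihood, filterByExpr defaults with a minimum count of 10, TMM factors of 1.05 to 1.07 in TP-18 and 0.924 to 0.962 in vehicle libraries, no covariates), which kept 12721 genes, with Benjamini-Hochberg adjustment over all of them at 0.05. CPM values use TMM-scaled library sizes, and SE is the absolute log2 fold change over the square root of F. Library totals of 16371128 to 17597645 limit precision mainly for genes with few reads. Replicates differed by more than sampling noise, so none was merged.

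Alternatives were RLE factors, library totals, DESeq2 1.42.0, no filter, limma 3.58.1 on log2(FPKM + 1) and log2(FPKM + 0.1), a replicate block and each library left out. GENCODE lengths, for levels and shares, were added after seeing the data. On simulated counts over 12562 genes, the TP-18 against vehicle fit found 0 of 67 genes with a 1.5-fold change, 19 of 66 with a 2-fold change and 58 of 64 with a 4-fold change, with 3 unchanged genes among 80 calls. Exons came from GENCODE M21, start windows from RefSeq GRCm38.p6. Members, lists and motifs were chosen with earlier results of these data known. Named genes were the members, from each family or pathway list the called genes and the 3 highest by FPKM, the 3 smallest p of the KEGG list and the 5 most like Sema4b. The rule also named the 2 highest of each marker list, which are given here mainly as sums instead. Other names were chosen after their values were seen. Figures used matplotlib 3.10.9 in Python 3.11.15.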

Additional observations from a re-analysis of the deposited data

How the results depend on the processing

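The count of called genes over the whole table, 14, became 4 with library totals as scaling, 566 with DESeq2, 27 without the filter, 2 with either limma fit, 3 with the replicate block and 0 to 8 when 1 library was left out, and stayed at 14 with RLE factors. The 1 called member, Sema4b, was still called with RLE factors, DESeq2 and no filter, and 0 members were called with library totals, either limma fit, the replicate block or any 1 library left out (0 to 0). The Sema4b log2 fold change stayed negative in all 13 settings. With the replicate block it was -1.54 (edgeR adjusted p = 0.0655). The replicate numbers are not stated to pair libraries, so the block rests on no known pairing. Deviations from group means correlated at 0.23, 0.39 and -0.15 between same-numbered libraries. Between libraries of unlike number the values ran from -0.631 to 0.513, so these correlations cannot settle whether libraries were paired. The 0 calls among 158 other family and pathway genes became 10 with DESeq2, which called 4.54% of all genes it tested, and stayed at 0 otherwise. Signs of members with estimates near 0 turned. With library totals, Sema4a was 0.10, Sema4d 0.012 and Plxnd1 0.18, and 9 of 10 members were positive in place of 6. With limma, Sema4a was 0.069 and Plxnd1 0.16 for log2(FPKM + 1), and Sema4a was 0.074 and Plxnd1 0.18 for log2(FPKM + 0.1), and with the replicate block Plxnd1 was 0.00024. With 1 library left out, Sema4a ran from -0.22 to 0.10, Sema4d from -0.88 to 0.17, Plxna1 from -0.092 to 0.24 and Plxnd1 from -0.12 to 0.084. With GENCODE lengths, chosen after seeing the data, the levels of Sema4c and Nrp2 moved to 4.87 and 21.7 FPKM, since the level is inverse to the length. The mean Sema4b share of the 4 semaphorins moved to 27.7% in TP-18 and 55.0% in vehicle libraries, and that of Sema4c to 26.4% in TP-18 and 10.3% in vehicle libraries. Other causes were not tested.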
